A study of Mus musculus with 10 samples.

Results

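The 35 genes described here encode the machinery that copies DNA in S phase, measured as RNA in Ly6Chigh monocytes sorted from mouse spleens. They were chosen by name, as a list of replication factors, and were matched to the gene symbols of the deposited tables. All 35 were found, each once in every library, among 24421 symbols common to all libraries. All 35 also passed the filter on low values, which 12938 of all symbols passed.

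DNA is copied once per cell cycle. In G1, the origin recognition complex (Orc1), Cdc6 and Cdt1 load the ring-shaped Mcm2-7 helicase onto DNA, a step called licensing. At the start of S phase, cyclin E (Ccne1, Ccne2) with its kinase helps to fire the licensed origins, at which Cdc45 and the GINS complex (Gins1, Gins2) join the helicase with the help of Mcm10. Polymerases then copy the strands on the sliding clamp Pcna, deoxynucleotides are supplied by enzymes such as ribonucleotide reductase (Rrm1, Rrm2), and nucleosomes are rebuilt behind the fork. Many of these genes are classical targets of the E2F transcription factors. Mature blood monocytes hardly divide, whereas their progenitors in bone marrow and spleen do, and RNA of S phase genes is commonly used as a marker of cycling cells.

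The RNA came from 10 libraries, all taken on day 5 after surgery. WT C57BL/6 mice had either sham surgery, a thoracotomy without ligation (WT sham, n = 3, replicates 1, 2 and 3), or MI through permanent occlusion of the left anterior descending artery (WT MI, n = 3, replicates 2, 3 and 4). Foxp3DTR mice, which express the human diphtheria toxin receptor from the Foxp3 promoter so that toxin removes Foxp3+ regulatory T cells (Tregs), had MI (Foxp3DTR MI, n = 4, replicates 1 to 4). The study's mice were male and 8 to 10 weeks old, and all operated mice received buprenorphine. Treg ablation used 500 ng diphtheria toxin on days 2 and 1 before surgery and 250 ng on day 2 after it. The study's text speaks of toxin-treated WT mice as controls, but the labels do not say which WT mice received toxin, so its part cannot be told apart from genotype here. The study describes these data by animals per group, and each library was taken as 1 animal, though the labels do not state it. After magnetic depletion of T and B cells, monocytes were sorted as CD11b+ Ly6G- F4/80+ Ly6Chigh CD115+ cells. Their RNA was amplified from picogram input.

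The depth inferred from the tables was 3.13 to 8.40 M (mega) reads of 50 bases per library, lowest in WT sham replicate 2, and 1 TPM (a length-corrected share of all transcripts) stood for 1.11 to 2.87 reads per kb of exon. Levels below are scaled TPM, the deposited TPM divided by a factor per library between 0.850 and 1.13 that sets the median gene equal between libraries. Fold changes are differences of log2(scaled TPM + 1) between group means, relative to that median gene, and understate the change of genes at a few TPM. The 10 markers of Ly6Chigh monocytes, among them Ly6c2, Ccr2 and Csf1r, summed to 37690 to 50397 scaled TPM in WT sham, 42748 to 48351 in WT MI and 24885 to 40349 in Foxp3DTR MI, and none was at 0 or passed the test. Foxp3, the gene whose promoter drives the toxin receptor, was at 7.03, 0.410 and 5.95 in WT sham, at 6.35, 6.26 and 0.898 in WT MI and at 5.16, 4.29, 5.15 and 5.34 in Foxp3DTR MI, and its RNA in sorted monocytes does not show whether Tregs were removed. Among the sham libraries, replicate 3 stood apart in RNA of other cells. Its 9 T cell markers summed to 156.5 scaled TPM, against 11.3 and 26.2 in replicates 1 and 2. Its 10 erythroid markers summed to 239, against 10.2 and 59.5. In Foxp3DTR MI the T cell markers summed to 30.6 to 125 and the erythroid markers to 11 to 39.6.

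Summed over the 35 genes, the RNA of the replication machinery was most abundant in monocytes of Foxp3DTR mice. The sum was 451, 416 and 778 scaled TPM in WT sham, 889, 427 and 549 in WT MI, and 1015, 1167, 672 and 1053 in Foxp3DTR MI. Foxp3DTR replicates 1, 2 and 4 lay above every WT library, while Foxp3DTR replicate 3 lay below WT sham replicate 3 and WT MI replicate 2, so that the groups overlapped. In these bulk samples a larger share of cycling cells and more of this RNA per cell cannot be told apart.

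**Figure D1:**
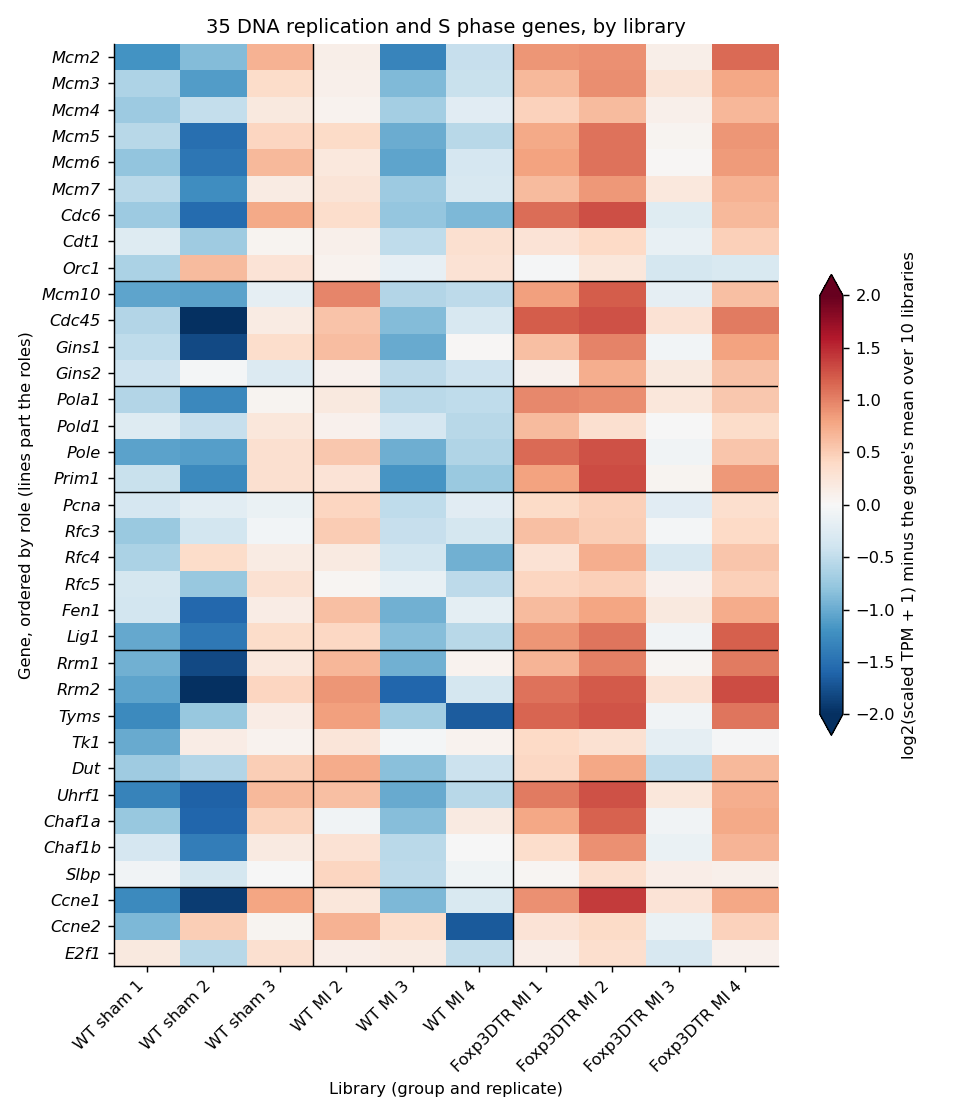
Heatmap of the 35 genes (rows, grouped by role) in the 10 libraries (columns, grouped by WT sham, WT MI and Foxp3DTR MI). Colour is log2(scaled TPM + 1) minus the gene's mean over the libraries, with the colour scale ending at 2 in either direction. Nearly all rows are red in Foxp3DTR replicates 1, 2 and 4 and blue in WT sham replicates 1 and 2 and WT MI replicate 3, and WT sham replicate 3 and WT MI replicate 2 are paler red.

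Whether Treg depletion altered the replication programme of splenic monocytes after MI is asked by Foxp3DTR MI against WT MI. In this comparison 34 of 35 fold changes were positive, all but that of Orc1, with a median of 0.77 on the log2 scale (range -0.18 to 1.37), where 50.1% of all tested genes were positive and their median was 0.00080. None of the 35 passed an adjusted p of 0.05 in limma, where 1.12% of all tested genes did, and the lowest adjusted p of a member was 0.147 (Mcm3). At an unadjusted p under 0.05, 14 of 35 members (40%) were higher in Foxp3DTR mice and 0 were lower, where 9.31% of all tested genes were higher. These 14 were the 6 Mcm2-7 genes, Gins2, Pola1, Pold1, Pole, Prim1, Rfc5, Lig1 and Tyms. In 5 of 35 members (14.3%), every Foxp3DTR library lay above every WT MI library, where 9.97% of all tested genes did so. By the files' mm10 coordinates these were Mcm3 (chr1:20803014-20820213, minus strand), Mcm4 (chr16:15623897-15637400, minus strand), Pola1 (chrX:93304766-93632155, minus strand), Rfc5 (chr5:117379145-117389023, minus strand) and Ccne1 (chr7:38097984-38107490, minus strand). The members vary together, and are not independent of each other in these counts.

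Single libraries moved these counts. Without WT MI replicate 3, in which 28 of 35 members had their lowest WT MI level, 1 member was left at an unadjusted p under 0.05, and without WT MI replicate 2, in which 31 of 35 had their highest, there were 26. The count was 6 without WT MI replicate 4, 7 without Foxp3DTR replicate 1, 2 or 4 in turn, and 21 without Foxp3DTR replicate 3. Without WT sham replicate 3, which enters this comparison only through the shared estimate of the spread, it was 20. The median fold change stayed between 0.61 and 1.12 in all of these fits, and 32 to 34 of 35 fold changes were positive.

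**Figure D2:**
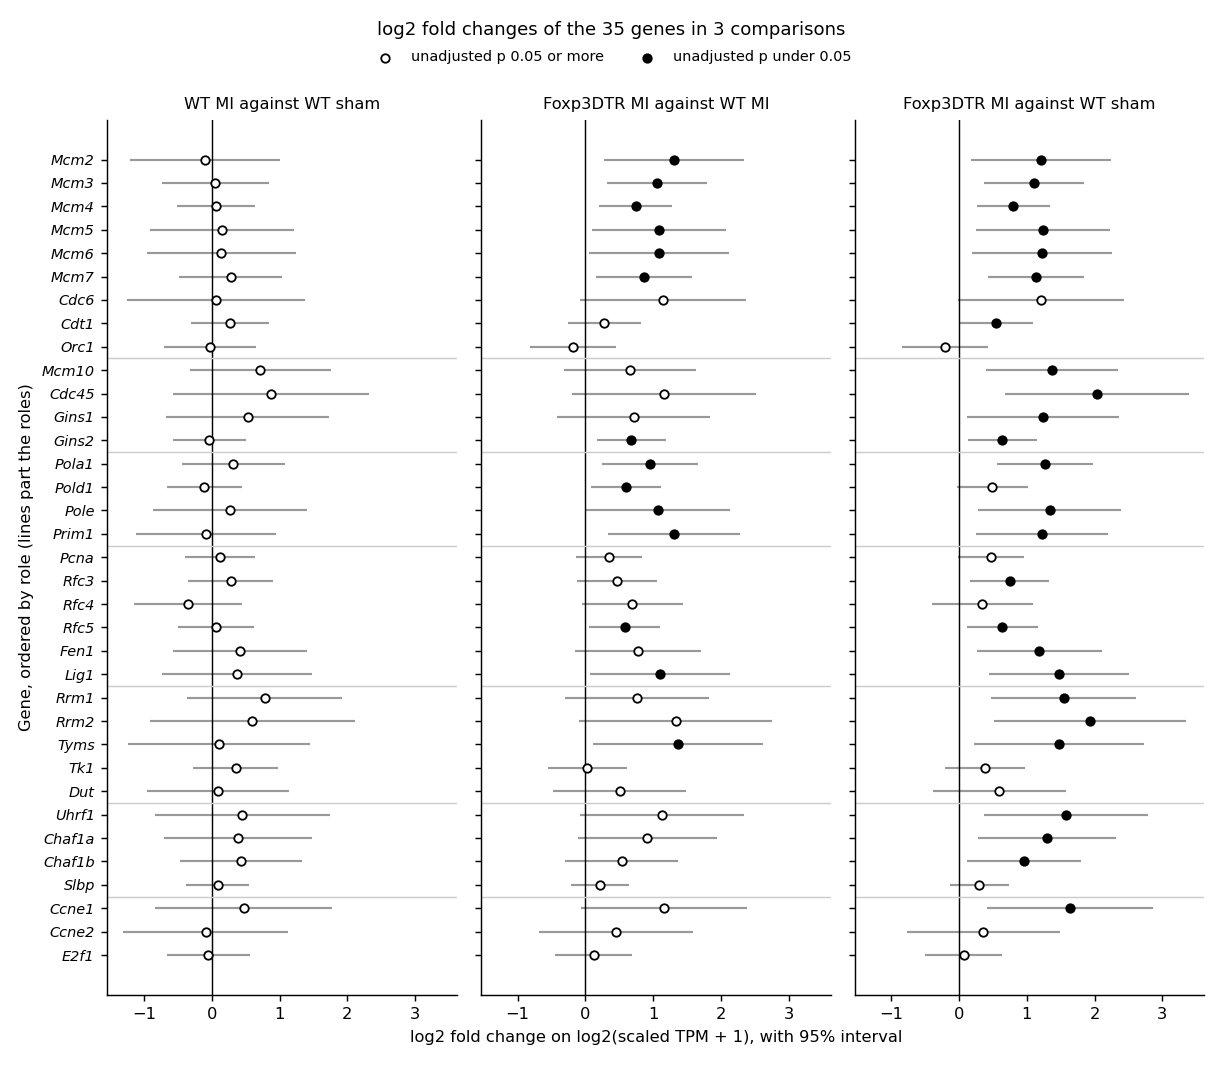
Fold changes of the 35 genes (points, log2 scale, horizontal axis) with 95% intervals (lines) in the 3 comparisons, with genes grouped by role on the vertical axis. Filled points have an unadjusted p under 0.05. In WT MI against WT sham every interval spans 0, and in both comparisons of Foxp3DTR mice all points but that of Orc1 lie to the right of 0.

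The licensing genes were led by the helicase. Mcm6, the Mcm2-7 subunit with the highest RNA level in Foxp3DTR mice, was at 18.3, 11.2 and 51.5 scaled TPM in WT sham, at 37.6, 15.1 and 25.6 in WT MI and at 57.6, 70.0, 33.2 and 59.6 in Foxp3DTR MI. The highest sham library, replicate 3, exceeded every WT MI library and the lowest Foxp3DTR library. Mcm3, another subunit of the ring, was at 15.8, 10.9 and 32.2 scaled TPM in WT sham, at 26.7, 13 and 18.0 in WT MI and at 39.3, 48.1, 29.9 and 43.3 in Foxp3DTR MI. All 4 Foxp3DTR libraries were above the 3 WT MI libraries, by 1.06 ± 0.33 on the log2 scale (SE; adjusted p = 0.147), and WT sham replicate 3 lay within their range. Mcm4 was similar, with 30.8 ± 8.02 scaled TPM in WT MI (SD, n = 3) and 51.7 ± 8.83 in Foxp3DTR MI (SD, n = 4), 0.74 ± 0.24 apart on the log2 scale (SE; adjusted p = 0.158). Mcm2 was at 14.6, 4.73 and 9.47 in WT MI and at 25.4, 25.9, 14.5 and 30.3 in Foxp3DTR MI, 1.31 ± 0.47 apart on the log2 scale (SE; adjusted p = 0.188), with Foxp3DTR replicate 3 just below WT MI replicate 2. Mcm7 was 0.86 ± 0.32 higher on the log2 scale (SE; adjusted p = 0.204), from 22.6 ± 8.12 (SD, n = 3) to 40.8 ± 7.56 scaled TPM (SD, n = 4), and the genes of 3 microRNAs overlap it. Mcm5 was at 16.9 ± 9.08 scaled TPM in WT MI (SD, n = 3) and 35.1 ± 9.91 in Foxp3DTR MI (SD, n = 4).

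The loaders of the ring differed among themselves. Cdc6 was low, between 0.787 and 11.7 scaled TPM over all libraries, with 3.15 ± 2.14 in WT MI (SD, n = 3) and 8.14 ± 3.69 in Foxp3DTR MI (SD, n = 4). Cdt1, which is destroyed once S phase begins, was at 20.0 ± 5.51 in WT sham (SD, n = 3), 24.5 ± 7.08 in WT MI (SD, n = 3) and 29.5 ± 5.48 in Foxp3DTR MI (SD, n = 4). Orc1, the subunit of the origin recognition complex whose level changes through the cell cycle, went the other way. It was at 4.12, 11.2 and 8.53 scaled TPM in WT sham, at 7.31, 6.05 and 8.67 in WT MI and at 6.76, 8.23, 5.17 and 5.40 in Foxp3DTR MI. These ranges overlapped throughout, the log2 fold change between Foxp3DTR and WT mice after MI was -0.18 ± 0.29 (SE; adjusted p = 0.784), and its sign turned, to 0.033, when TPM was not scaled.

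The promoters of the genes were searched for the words of E2F sites. The list holds many classical E2F targets, so a high share was likely whatever the RNA levels were. A link between these words and the levels was not tested. RefSeq windows of 300 bases (build GRCm38.p6, 250 before and 50 after the gene start) were found for 30 of the 35 genes, not for Mcm4, Ccne2, Pole, Gins1 and Gins2. An E2F-type word (TTTCCCGC, TTTGGCGC, TTTCGCGC or TTTGCCGC, on either strand) stood in a window of 12 of these 30 genes (40%), against 2.6% of the 27025 symbols that have a window and 4.58% of the 9409 tested genes that have one. The 12 genes were Mcm3, Mcm5, Mcm6, Mcm7, Cdc6, Cdt1, Orc1, Pola1, Pold1, Rfc3, Lig1 and Uhrf1. Counted from the RefSeq start of each window, 11 of 18 matches lay before it, the farthest beginning 185 bases before it, and 7 at or after it. This start can differ from that of the span in the expression data. Mcm3 carried matches that began 20 and 39 bases after its RefSeq start. Its window (20820263-20820562) nevertheless lies wholly before its span (chr1:20803014-20820213, minus strand). The farthest match, in Uhrf1, stood in a window (56304063-56304362) inside the span of that gene (chr17:56303337-56323486). The bases before the start are shown for Mcm6, which held 3 matches, of which 2 overlap as opposite words, for Pola1, whose libraries did not overlap between Foxp3DTR and WT mice, and for Orc1, the member that went the other way. Capitals mark the E2F-type words, read 5′ to 3′ on the strand of the gene.
Mcm6 (chr1:128359706-128359955, minus strand): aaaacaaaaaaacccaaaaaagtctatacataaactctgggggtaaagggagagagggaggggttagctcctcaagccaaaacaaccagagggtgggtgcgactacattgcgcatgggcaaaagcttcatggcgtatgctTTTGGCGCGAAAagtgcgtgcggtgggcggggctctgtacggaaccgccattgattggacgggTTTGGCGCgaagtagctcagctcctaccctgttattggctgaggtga
Pola1 (chrX:93632156-93632405, minus strand): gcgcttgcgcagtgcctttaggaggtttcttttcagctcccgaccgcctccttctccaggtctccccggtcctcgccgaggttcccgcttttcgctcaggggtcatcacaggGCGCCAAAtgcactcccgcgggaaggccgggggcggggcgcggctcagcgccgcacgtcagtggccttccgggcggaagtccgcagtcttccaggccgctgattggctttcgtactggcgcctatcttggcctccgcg
Orc1 (chr4:108579204-108579453, plus strand): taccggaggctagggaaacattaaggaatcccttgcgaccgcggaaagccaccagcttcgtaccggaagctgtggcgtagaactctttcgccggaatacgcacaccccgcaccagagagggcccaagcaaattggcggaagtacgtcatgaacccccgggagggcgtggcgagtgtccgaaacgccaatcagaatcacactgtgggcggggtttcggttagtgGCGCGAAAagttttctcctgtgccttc

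Members with and without such a word were found among those with large and small fold changes: Orc1 carries a word that begins 27 bases before its start, and Rfc5, Prim1 and Rrm2 have none in these windows. Other words were counted in the same windows. CCAAT, on either strand, stood in 17 of the 30 (56.7%) against 41.1% of all symbols with a window and 43.1% of the tested genes with one. TTTGAA or TTCGAA, the words of the cell cycle homology region (CHR) of mitotic genes, stood in 5 of the 30 (16.7%). This was near the share in the tested genes (16.8%), and 21.7% of all symbols had such a word. In 21 of 24 mitosis and G2/M genes with a window, these shares were 90.5% for CCAAT, 81% for the CHR words and 9.52% for the E2F-type words. A match describes letters and not binding, and E2F sites spelled differently were not searched.

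Among the genes that fire origins, Cdc45, which joins the helicase at each fork, had the widest range of all members as a ratio, 74.4-fold. It ran from 0.276 scaled TPM in WT sham replicate 2, the shallowest library, to 20.5 in Foxp3DTR replicate 2. The lowest value rests on very few reads. It was at 4.91, 0.276 and 8.89 scaled TPM in WT sham, at 12.2, 3.87 and 6.13 in WT MI and at 19.6, 20.5, 9.87 and 17.3 in Foxp3DTR MI. Every Foxp3DTR library was above the sham libraries, and the lowest was below WT MI replicate 2. Gins2, a subunit of the GINS complex, was the steadiest of this group, at 4.61 ± 1.34 in WT MI (SD, n = 3) and 7.98 ± 1.90 in Foxp3DTR MI (SD, n = 4), 0.68 ± 0.23 higher on the log2 scale (SE; adjusted p = 0.169), and it overlaps Gse1 on the other strand. Its partner Gins1 was at 7.95 ± 4.56 and 12.7 ± 3.86 in the same groups. Mcm10, which is needed to activate the loaded helicase, was at 12.9, 3.72 and 3.94 in WT MI and at 11.5, 15.4, 5.27 and 9.76 in Foxp3DTR MI, so that WT MI replicate 2 lay within the Foxp3DTR range.

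All 4 polymerase and primase genes were higher in Foxp3DTR than in WT mice after MI at an unadjusted p under 0.05, with log2 fold changes from 0.60 to 1.31. Pola1, the catalytic subunit of the polymerase that starts each new strand, was at 7.66, 4.31 and 12.5 scaled TPM in WT sham, at 13.8, 7.90 and 8.15 in WT MI and at 24.2, 23.8, 14.2 and 17.9 in Foxp3DTR MI. No Foxp3DTR library overlapped with any WT library, and the log2 fold change against WT MI was 0.95 ± 0.32 (SE; adjusted p = 0.168). Prim1, the primase that lays the RNA primer for it, was at 6.55, 3.23 and 11.8 in WT sham, at 11.3, 3.54 and 5.11 in WT MI and at 16.9, 24.3, 9.65 and 17.7 in Foxp3DTR MI. Foxp3DTR replicate 3 fell within the WT ranges, and the log2 fold change against WT MI was 1.31 ± 0.44 (SE; adjusted p = 0.168). Pold1, the lagging strand polymerase, moved less, with 6.28 ± 1.68 in WT MI (SD, n = 3) and 9.996 ± 1.98 in Foxp3DTR MI (SD, n = 4), 0.60 ± 0.23 higher on the log2 scale (SE; adjusted p = 0.219). Pole, the leading strand polymerase, was at 1.34 to 11 scaled TPM over all libraries, with means of 2.66, 3.36 and 7.78 in WT sham, WT MI and Foxp3DTR MI.

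Pcna, the clamp that holds polymerases on DNA, had the highest level of all members and 1 of the narrowest ranges. It was at 112, 122 and 128 scaled TPM in WT sham, at 190, 99.0 and 120 in WT MI and at 183, 196, 121 and 178 in Foxp3DTR MI. WT MI replicate 2 and Foxp3DTR replicate 3 each lay among the libraries of the other group. Of the clamp loader subunits, Rfc5 was at 22.4, 19.4 and 14.8 in WT MI and at 29.6, 30.6, 23.1 and 30.7 in Foxp3DTR MI. These did not overlap, but WT sham replicate 3, at 27.0, lay within the Foxp3DTR range. Rfc3 was at 12.2 ± 5.2 and 16.6 ± 3.20 in WT MI and Foxp3DTR MI. Rfc4, which overlaps Eif4a2 on the other strand, was at 10.8 ± 4.53 and 17.9 ± 5.42 in these groups. Fen1, the nuclease that trims Okazaki fragments, was at 14.1, 5.58 and 20.5 in WT sham, at 28.4, 9.02 and 16.0 in WT MI and at 29.1, 32.6, 21.4 and 31.4 in Foxp3DTR MI, above all sham libraries but not above all WT MI libraries. Lig1, the ligase that seals the fragments, was at 8.25 ± 4.52 in WT MI (SD, n = 3) and 18.5 ± 6.38 in Foxp3DTR MI (SD, n = 4).

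Among the genes of deoxynucleotide supply, Rrm2, the S phase subunit of ribonucleotide reductase, stood out for its spread. It was at 14.1, 5.70 and 41.4 scaled TPM in WT sham, at 56.8, 9.48 and 23.7 in WT MI and at 65.9, 72.7, 37.4 and 77 in Foxp3DTR MI. Its lowest and highest libraries were 13.5-fold apart, and its SD within groups, 1.02 on the log2 scale, was the largest of all members. Rrm1, the large subunit of the same enzyme, was at 44.0, 13.6 and 28.7 in WT MI and at 44.6, 55.9, 28.1 and 57.2 in Foxp3DTR MI, with WT MI replicates 2 and 4 within the Foxp3DTR range. Tyms, which makes thymidylate, had the largest fold change of the members, 1.37 on the log2 scale, with 4.01 ± 4.25 in WT MI (SD, n = 3) and 9.73 ± 3.65 in Foxp3DTR MI (SD, n = 4), at levels between 0.762 and 12.3, and it has a processed near copy whose reads may be shared. Dut, which removes dUTP, was at 9.37 ± 6.20 and 12.9 ± 4.64 in these groups. Tk1, the salvage kinase of thymidine, differed least of the members with a positive sign, at 23.7 ± 2.48 and 24.5 ± 4.79, and overlaps Afmid on the other strand.

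Behind the fork, Uhrf1, which guides the copying of DNA methylation, was at 2.91, 2.20 and 14.4 scaled TPM in WT sham, at 14, 3.92 and 5.70 in WT MI and at 19.1, 22.8, 10.5 and 15.2 in Foxp3DTR MI. WT sham replicate 3 and WT MI replicate 2 were both above Foxp3DTR replicate 3. Chaf1a and Chaf1b, subunits of the histone chaperone CAF-1, were at 6.86 ± 2.64 and 6.15 ± 1.96 in WT MI (SD, n = 3) and at 13.9 ± 4.87 and 9.43 ± 3.08 in Foxp3DTR MI (SD, n = 4). Slbp, which binds histone mRNA, was at 54.5 ± 18.4 and 61.2 ± 5.63 and varied little between libraries, 1.96-fold from lowest to highest. Of the G1/S regulators, the cyclin Ccne1 was at 2.88, 1.5 and 15.0 in WT sham, at 9.93, 4.03 and 6.53 in WT MI and at 16.5, 23.5, 10.3 and 15.0 in Foxp3DTR MI, above all WT MI libraries but not above WT sham replicate 3. Its relative Ccne2, which overlaps Ints8, was at 15.5 ± 10.5 in WT MI (SD, n = 3) and 17.5 ± 3.19 in Foxp3DTR MI (SD, n = 4). E2f1, the transcription factor that drives many of these genes, was at 10.3 ± 2.66 and 11.2 ± 2.23 in these groups, and 10.9 ± 3.49 in WT sham (SD, n = 3).

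**Figure D3:**
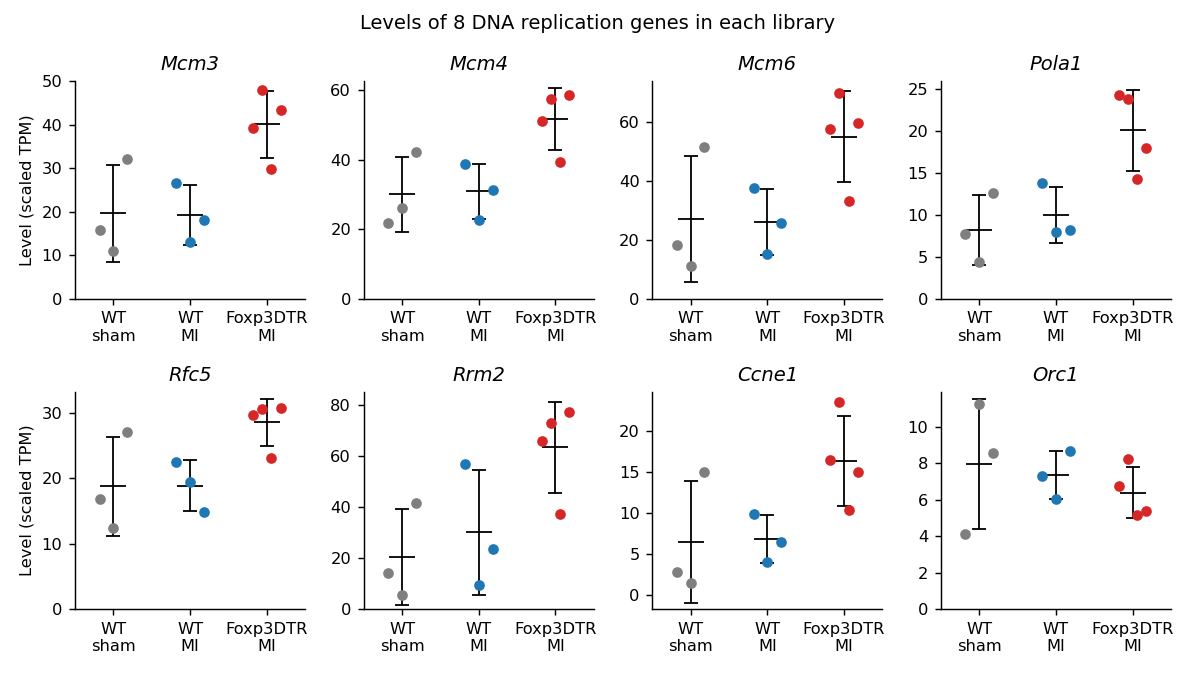
Levels of 8 of the genes in each library (points, scaled TPM, linear axis) by group, with the mean and SD of each group in black (n = 3, 3 and 4). Pola1 in Foxp3DTR mice (14.2 to 24.2) lies above all WT libraries. For Mcm3, Mcm4, Mcm6, Rfc5, Rrm2 and Ccne1 WT sham replicate 3 reaches the Foxp3DTR range, and Orc1 shows no order of the groups.

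WT MI against WT sham asks whether infarction without Treg depletion moved these genes by day 5. The labels do not say whether toxin treatment was the same in these groups. None of the 35 passed the adjusted threshold in limma, as did 0% of all tested genes, of which 600 had an unadjusted p under 0.05. At an unadjusted p under 0.05, 0 of 35 members were higher, where 2.2% of all tested genes were, and 0 of 35 had all WT MI libraries above all sham libraries, where 3.18% of all tested genes had. The median fold change was 0.15 on the log2 scale, 27 of 35 were positive, and without scaling these were -0.0089 and 17. The members with the lowest p were Mcm10, with a log2 fold change of 0.72 ± 0.47, Rrm1 with 0.78 ± 0.51, Cdc45 with 0.87 ± 0.65 and Tk1 with 0.36 ± 0.28, and among negative ones Rfc4 with -0.35 ± 0.36, Pold1 with -0.11 ± 0.25, E2f1 with -0.05 ± 0.28 and Mcm2 with -0.09 ± 0.50 (SE; limma, adjusted p between 0.96 and 0.997). Of these, Tk1, Pold1, E2f1 and Mcm2 changed sign when 1 library was left out.

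The spread between animals set what could be seen. The 95% interval for Mcm3 ran from -0.74 to 0.84 and that for Rrm2 from -0.92 to 2.12, so that changes of 2-fold in either direction for Mcm2 (-1.20 to 1.01) and upward for Rrm2 were within the intervals. Leaving out WT sham replicate 3 moved the median from 0.15 to 0.52, with 4 members at an unadjusted p under 0.05, and leaving out WT sham replicate 2 or WT MI replicate 2 moved it to -0.027 or -0.067.

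Foxp3DTR MI against WT sham mixes genotype, Treg depletion and infarction, and shares its libraries with the other comparisons. Here too 34 of 35 fold changes were positive, with a median of 1.18 (range -0.21 to 2.03). None of 35 passed the adjusted threshold, where 0.541% of all tested genes did, and the lowest adjusted p was 0.103 (Pola1). At an unadjusted p under 0.05, 25 of 35 members (71.4%) were higher, where 10.2% of all tested genes were. In 7 of 35 (20%), namely Mcm7, Cdc45, Gins2, Pola1, Rfc3, Fen1 and Slbp, every Foxp3DTR library lay above every sham library, where 9.8% of all tested genes did. Cdc45 had the largest fold change, 2.03 ± 0.61 (SE; adjusted p = 0.138), though its 0.276 scaled TPM in WT sham replicate 2 rests on very few reads. Pola1 was at 1.27 ± 0.32 (SE; adjusted p = 0.103), Mcm7 at 1.14 ± 0.32 (SE; adjusted p = 0.123) and Mcm3 at 1.11 ± 0.33 (SE; adjusted p = 0.138). Orc1 was the only negative one, at -0.21 ± 0.29 (SE; adjusted p = 0.731), and it was positive without WT sham replicate 2 (0.062).

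This comparison turned on the sham libraries. WT sham replicate 3 had the most T cell and erythroid marker RNA of the sham libraries. It also had the highest sham level in 30 of 35 members, so leaving it out raises most of these fold changes by construction. Without it, 15 of 35 members passed the adjusted threshold. They were the 6 Mcm2-7 genes, Rrm1, Rrm2, Cdc45, Pola1, Rfc5, Lig1, Uhrf1, Chaf1a and Ccne1. At an unadjusted p under 0.05 there were 27, and the median was 1.55. In that fit 636 of 12772 tested genes passed. Mcm3 then had a log2 fold change of 1.52 (adjusted p = 0.020), Mcm7 of 1.49 (0.025), Pola1 of 1.60 (0.022) and Cdc45 of 2.65 (0.037). WT sham replicate 2, the shallowest library, had the lowest sham level in 24 of 35 members. Without it, 9 members were at an unadjusted p under 0.05 and the median was 0.76, and without WT sham replicate 1 there were 13. Without Foxp3DTR replicate 2 there were 16.

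**Figure D4:**
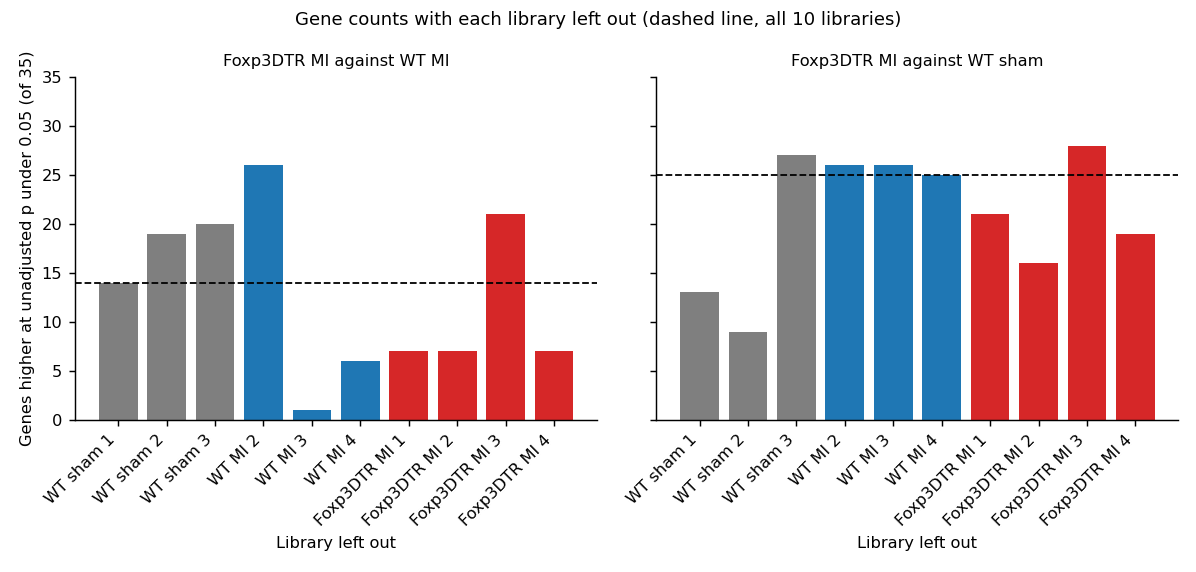
Number of the 35 genes that were higher in Foxp3DTR MI at an unadjusted p under 0.05 (bars, linear axis from 0) against WT MI (left) and against WT sham (right), after leaving out the library named under each bar. The dashed line is the count with all 10 libraries, 14 on the left and 25 on the right, and the bars run from 1 to 26 on the left and from 9 to 28 on the right.

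The genes were high or low together from library to library. In WT sham, replicate 3 had the highest level in 30 of 35 members, where it had the highest level of 33.2% of all tested genes. In WT MI, replicate 2 was highest in 31 of 35 (34.4% of all tested genes) and replicate 3 lowest in 28 of 35 (31.5%). In Foxp3DTR MI, replicate 3 was lowest in 33 of 35 (23%), all but Gins2 and Slbp, and replicate 2 highest in 23 of 35 (24%). The SD within groups was 0.67 on the log2 scale in the median member (range 0.29 to 1.02), against 0.25 in the median of all tested genes and 0.22 in the median of the 9280 tested genes within the members' range of levels. The steadiest members were Gins2, Slbp, Pold1, Pcna and Rfc5, and the most variable were Rrm2, Cdc45, Tyms, Ccne1 and Cdc6.

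The other genes of the pathway were taken from lists of their own, whose counts at an unadjusted p under 0.05 stand beside 9.31% of all tested genes that were higher in Foxp3DTR MI against WT MI. Of 15 other licensing and firing factors, 0 passed the adjusted threshold in Foxp3DTR MI against WT MI, 3 were higher at an unadjusted p under 0.05 and the median log2 fold change was 0.41. Ticrr, which brings Cdc45 to origins, was at 1.1 and Wdhd1, which ties polymerase alpha to the helicase, at 0.83, while the origin recognition subunits Orc5 and Orc3 were at -0.10 and -0.06. Of 23 other polymerase and fork factors, 0 passed, 6 were higher and 1 was lower at an unadjusted p under 0.05, with a median of 0.29. Chtf18, of an alternative clamp loader, was at 1.00 and the polymerase epsilon subunit Pole3 at 0.52, and the polymerase delta subunit Pold4 was at -0.47 and the nuclease and helicase Dna2 at -0.17.

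Other nucleotide synthesis genes stood nearly level, with 0 of 11 past the adjusted threshold, 1 higher at an unadjusted p under 0.05, close to the share of 9.31% over all tested genes, and a median of 0.08. In this list Cad, which starts pyrimidine synthesis, was at 0.65, Umps at -0.22 and Cmpk1 at -0.06. All 10 other genes of replication-coupled chromatin had positive fold changes, 0 of 10 passed the adjusted threshold, 3 were higher at an unadjusted p under 0.05 and the median was 0.63, with the maintenance methyltransferase Dnmt1 at 0.63 and the histone chaperone Nasp at 0.73. Of 14 other G1/S activators 0 passed, 7 were higher at an unadjusted p under 0.05 and the median was 0.59. The activator E2f3 was at 0.90 and cyclin D2 (Ccnd2) at 1.55, and the E2F partner Tfdp2 was at -0.33 and E2f2 at -0.24.

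Of 14 brakes on S phase 12 were tested, 0 passed in Foxp3DTR MI against WT MI, 3 were higher at an unadjusted p under 0.05 and the median was 0.24. The atypical repressor E2f7, itself a gene of late G1 and S phase, was at 1.49, while the retinoblastoma gene Rb1 was at -0.26 and the inhibitor Cdkn1b (p27) at -0.22. Rbl1 (p107), a pocket protein that is itself an E2F target, was the only pathway gene to pass the threshold in any comparison. It was at 37.0, 28.6 and 34.9 scaled TPM in WT sham, at 44.3, 42.2 and 37.1 in WT MI and at 56.8, 59.8, 49.5 and 53.9 in Foxp3DTR MI, higher than in WT sham by 0.70 ± 0.12 on the log2 scale (SE; adjusted p = 0.043) and against WT MI by 0.41 ± 0.12 (SE; adjusted p = 0.121). All 4 Foxp3DTR libraries lay above all WT libraries. The call against WT sham was held in 1 of 10 fits that left out 1 library, the fit without WT sham replicate 3 (adjusted p = 0.021), and the adjusted p was 0.051 to 0.133 in the other 9.

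Genes of mitosis and G2/M, which follow S phase, went with the replication genes. All 24 were positive in Foxp3DTR MI against WT MI with a median of 1.1, where 50.1% of all tested genes were positive. Of the 24, 14 were higher at an unadjusted p under 0.05, where 9.31% of all tested genes were, and 0 passed the adjusted threshold. Ncapg, a condensin subunit, was at 1.38 and Cdc20, which activates the anaphase-promoting complex, at 1.66. The summed level of the 24 genes was 219, 198 and 487 scaled TPM in WT sham, 759, 206 and 302 in WT MI and 915, 1065, 457 and 913 in Foxp3DTR MI. These sums ordered the libraries within each group almost as the sums of the replication genes did, with replicate 3 highest in WT sham, replicate 2 highest and replicate 3 lowest in WT MI, and replicate 3 lowest in Foxp3DTR MI.

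Markers of other cells were read in the same libraries. The 10 markers of myeloid progenitors, which include the granule genes Mpo, Elane and Prtn3, summed to 139, 92.8 and 166 scaled TPM in WT sham, to 267, 103 and 198 in WT MI and to 249, 265, 154 and 360 in Foxp3DTR MI. Within each group the library with the lowest sum was also the library with the lowest sum of replication genes. Of these 10 markers none was called in Foxp3DTR MI against WT MI, 9 had positive fold changes (50.1% of all tested genes had) and the median was 0.73, and Flt3, a receptor of early progenitors and dendritic cell precursors, was the negative one at -1.87. Their part in the differences of the replication genes was not tested.

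Neutrophil markers (11 of 12 in the tables, without the sort marker Ly6g) summed to 580 to 1484 scaled TPM in WT sham, 373 to 602 in WT MI and 1230 to 2815 in Foxp3DTR MI. S100a9, Camp and Ngp passed the adjusted threshold as higher in Foxp3DTR than in WT mice after MI, where 1.12% of all tested genes passed. At an unadjusted p under 0.05, 10 of 11 were higher, as were 8 of 9 T cell markers, where 9.31% of all tested genes were. The median log2 fold changes of these lists were 3.35 and 1.94. Camp, Ltf and Retnlg were at 0 in 2 or all 3 of the WT MI libraries, and with 1 library left out S100a9 passed in 6, Camp in 7 and Ngp in 4 of 10 fits. T cell markers (9 of 12) summed to 11.3 to 156.5 in WT sham, 8.73 to 12 in WT MI and 30.6 to 125 in Foxp3DTR MI, and Cd3e, Cd3g and Cd8b1 were each at 0 in 1 WT MI library. NK cell markers (8 of 8) summed to 55.3 to 199, 33.0 to 71.5 and 84.7 to 194 in these groups, and plasma cell markers (4 of 5, with Mzb1 at 0 in all WT MI libraries) to 6.66 to 222, 4.62 to 14.1 and 29.7 to 105. Erythroid markers (10 of 11, with Hbb-bt at 0 in every library) summed to 10.2 to 239, 6.61 to 18.9 and 11 to 39.6. B cell markers (6 of 7) summed to 13.3 to 23.6, 12.3 to 15.1 and 7.70 to 14.7, and dendritic cell markers (4 of 4) to 18.5 to 63.0, 9.59 to 26.8 and 6.58 to 12.1. Of the B cell markers, Cd79b was lower in Foxp3DTR mice past the threshold, against WT MI in 2 of 10 fits with 1 library left out. It went against its list, since 3 of the 4 tested B cell markers had positive fold changes against WT MI. Their median was 0.31 on the log2 scale, and 50.1% of all tested genes were positive.

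The plasma cell and T cell marker lists differed in how they ran beside the replication genes inside each group. Plasma cell markers summed to 6.66, 12.5 and 222 scaled TPM in WT sham, to 14.1, 4.62 and 12.2 in WT MI and to 46.3, 105, 29.7 and 85.4 in Foxp3DTR MI. In both MI groups this ranked the libraries exactly as the replication sum did. In WT sham replicate 3 was highest in both, while replicates 1 and 2 ranked the other way round. Most of the plasma cell sum was 1 gene, Jchain, at 202 of 222 in WT sham replicate 3 and 93.6 of 105 in Foxp3DTR replicate 2. T cell markers in WT MI were at 8.73, 10.8 and 12, too close together for their order to be read. The replication sums of these libraries were 889, 427 and 549. In Foxp3DTR MI, replicate 1 had the lowest T cell sum (30.6) and a replication sum of 1015, while replicate 3, with a T cell sum of 80.2, had the lowest replication sum. In WT sham, replicate 3 was highest for T cell markers too. The part of neutrophil, T cell, plasma cell and other marker RNA in the differences between groups was not tested.

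**Figure D5:**
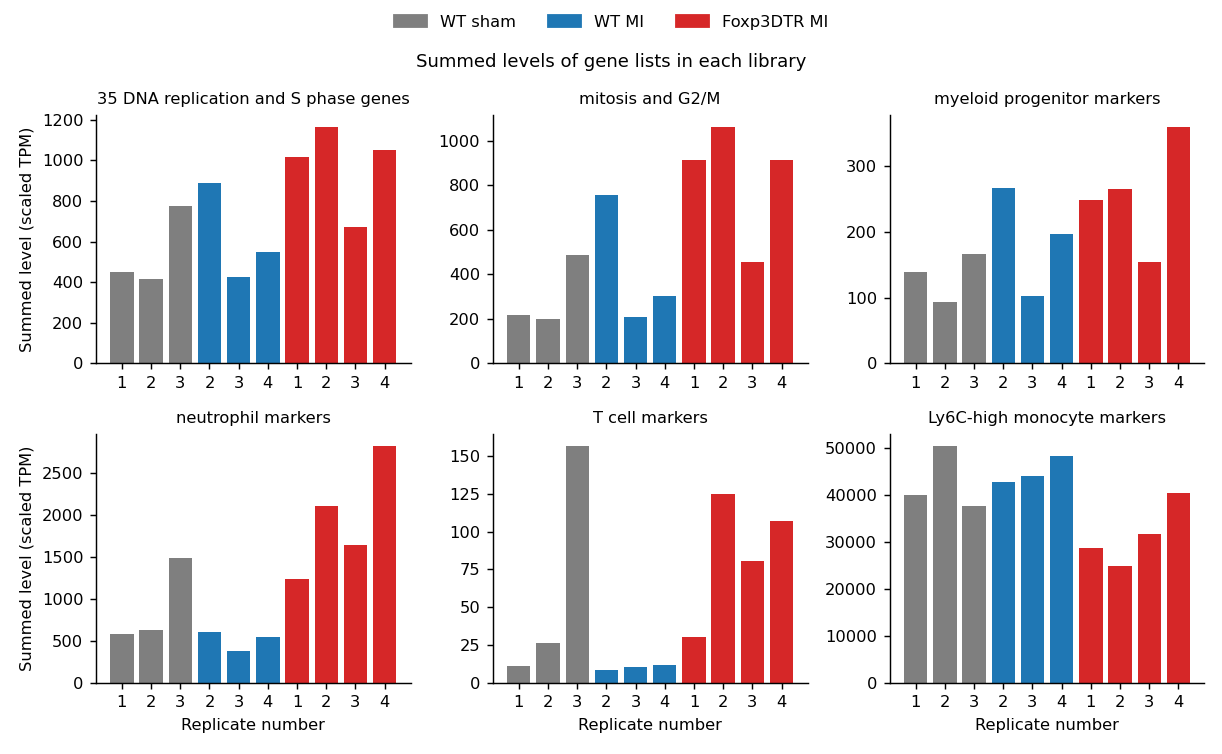
Summed levels (bars, scaled TPM, linear axes from 0, which differ between panels) of the 35 replication genes, the 24 mitosis and G2/M genes and the markers of myeloid progenitors, neutrophils, T cells and Ly6Chigh monocytes in each library, coloured by group and named by replicate number. The panels of replication, mitosis and progenitor genes share the low bars of WT MI replicate 3 and Foxp3DTR replicate 3, while the T cell panel is tallest in WT sham replicate 3.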

How the data were processed

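RNA-seq of sorted splenic Ly6Chigh monocytes was read from the 10 gene abundance tables that the authors deposited, with TPM, FPKM and coverage per gene from StringTie 1.3.0. The submitters' processing notes also name CASAVA 1.4, cutadapt 1.1, STAR 2.5 and build mm10. No strand setting was stated. The deposited TPM were summed per gene symbol and scaled between libraries by median-of-ratios factors, the deposited FPKM served as an alternative, and the deposited coverage gave the depth. Depth limits precision, but TPM keep no counting error.

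Genes that reached 1 TPM in at least 3 libraries entered the test on log2(scaled TPM + 1) with limma 3.58.1 (R 4.3.3), with a variance trend, a shared spread over all 10 libraries and Benjamini-Hochberg adjustment over 12938 genes. Gene counts, on which the study's own test was run, were not used here. The study speaks of animals per group, but the labels do not tie each library to its own animal, so p-values measure the spread between these samples, which may in part be technical. The members, lists and tests were chosen with earlier results of these data known. Fold changes with errors are given for the 8 members of lowest p in each direction in Foxp3DTR MI against WT MI and for 4 in each of the other comparisons. Of each pathway list, genes past the threshold and the 2 of lowest p each way are named, except 1 gene that is not reported here. Markers were named where called, at 0 or as examples of their list, and other members were given by their levels. The fit was tested on simulated data. Figures were drawn with matplotlib 3.10.9.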

Additional observations from a re-analysis of the deposited data

Results flagged for a closer look

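In the 4 Foxp3DTR MI libraries, the level of the clamp loader subunit Rfc5 in replicate 3 stood apart, at 23.1 scaled TPM against 29.6 to 30.7 in the other three. Its gap to the nearest of them was 0.853 of the whole range, above Dixon's 95% critical value for 4 libraries. It was the only such value among 35 genes tested in this group, and chance alone marks about 1 in 20. The same library had the lowest level of 33 of the 35 genes. The groups of 3 were not tested in this way.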

How the results depend on the processing

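The median fold change of the 35 genes stayed positive in all settings in both comparisons of Foxp3DTR mice. It was 0.61 to 1.12 against WT MI and 0.76 to 1.55 against WT sham with 1 library left out, and 0.64 to 1.00 and 0.79 to 1.26 in the other settings. In WT MI against WT sham the median turned to -0.0089 without scaling and ran from -0.067 to 0.52 with 1 library left out. Against WT MI, 1 gene passed the adjusted threshold when only the 2 groups compared were fitted (Mcm3, limma, adjusted p = 0.046). Against WT sham, 0 to 15 genes passed with 1 library left out. The count at an unadjusted p under 0.05 against WT MI, 14 with all libraries, was 24 without scaling, 21 with only the 2 groups, 21 with array weights and 7 with the replicate block. Without scaling, the median of all tested genes shifted by 0.22 in Foxp3DTR MI against WT MI, -0.17 in WT MI against WT sham and 0.05 in Foxp3DTR MI against WT sham. Signs turned for Orc1 against WT MI without scaling (0.033) and against WT sham with array weights (0.052), where it ran from -0.56 to 0.062 with 1 library left out. In WT MI against WT sham the ranges with 1 library left out were -0.015 to 0.56 for Tk1, -0.28 to 0.089 for Pold1, -0.32 to 0.16 for E2f1 and -0.47 to 0.48 for Mcm2. The cause of these changes was not tested. Settings for genes of other lists were chosen after seeing the data.

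The labels do not say whether same-numbered libraries were handled together. The correlations of their deviations from the group means lay between -0.19 and 0.19. With groups of 3 or 4 libraries these values do not settle it. With the replicate block, the medians were 0.80, 0.20 and 1.13 in the order Foxp3DTR MI against WT MI, WT MI against WT sham and Foxp3DTR MI against WT sham, no member passed, and E2f1 was at 0.082 in WT MI against WT sham.

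At 1.11 reads per kb of exon for 1 TPM in the shallowest library, levels near 1 TPM, such as those of Cdc6 and Cdc45 in WT sham replicate 2, rest on very few reads. An absent call does not show equal levels, since the median SE of a member was 0.44 on the log2 scale in Foxp3DTR MI against WT MI, where that of all tested genes was 0.19.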
